A study of Mus musculus with 6 samples.

Results

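The genes described here are the double-stranded RNA sensors DDX58, IFIH1, DHX58 and TLR3, the RNA-activated kinase EIF2AK2 and the interferon signalling factors STAT2, IRF9, IRF7 and IRF1. They were chosen by name, with earlier results of these data known. Every probe listed under any of these names was taken, whatever the case of its letters, and each probe was kept separate. This gave 15 probes for 9 genes, out of 45281 probes under 30854 gene names on the array. The study examined what loss of DJ-1, an antioxidant protein encoded by *Dj1* (Park7), does in muscle cells, using C2C12, a line of mouse myoblasts (muscle precursor cells) whose cells fuse into myotubes once serum is lowered. Myoblasts were reverse transfected with Lipofectamine RNAiMAX carrying 60 nM of scramble siRNA or of a *Dj1* siRNA, were moved to differentiation medium with horse serum after 48 h, and were collected after 4 further days. Each group had 3 samples, and the 6 arrays lay on a single Illumina mouse BeadChip.

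Both groups therefore received a short double-stranded RNA with a lipid carrier, and myotubes without transfection were not analysed here. Since a single *Dj1* siRNA was set against scramble siRNA, loss of DJ-1 and any effect of the siRNA sequences themselves cannot be told apart for genes that respond to RNA. The labels number the samples as replicates without saying that they were separate cultures, so the p-values measure the spread between these samples.

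Cells recognise foreign or misplaced double-stranded RNA through a few proteins. In the cytosol the helicases RIG-I (DDX58) and MDA5 (IFIH1) bind it and signal through the mitochondrial adaptor MAVS, LGP2 (DHX58) tunes them, TLR3 senses RNA in endosomes, and PKR (EIF2AK2) phosphorylates the translation factor eIF2-alpha and so slows protein synthesis. The sensors switch on type I interferon genes with the help of IRF7, and secreted interferon acts through its receptor and the Janus kinases to assemble a factor, with STAT2 and IRF9 among its subunits, that binds interferon-stimulated response elements. IRF1 is a related factor that is classically induced through gamma-activated sites. Most of these genes are themselves induced by interferon, and in muscle they are best known from dermatomyositis, in which fibres carry a strong type I interferon signature.

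After *Dj1* knockdown the sensors DDX58 and DHX58, the kinase EIF2AK2 and the factors STAT2, IRF9 and IRF7 fell, by between 1.56-fold and 2.52-fold on the probes that passed the test. No member rose. IRF1, on its brightest probes, lay at nearly the same level in both groups, and TLR3 was not detected on any array. Of the 14 member probes tested, 7 were lower and 0 higher at an adjusted p under 0.05 from limma, against 13.6% lower and 16.5% higher among all 17890 probes tested (30.1% in either direction). At an unadjusted p under 0.05 the counts were 8 lower and 0 higher, beside 3439 lower and 4220 higher of all 17890 probes. Without limma's moderation of the variances, after Benjamini-Hochberg adjustment, they were 5 lower and 0 higher, beside 1680 and 1994 of all probes. The groups did not overlap for 8 member probes, all lower in the knockdown, against 22% of all probes lower and 26.5% higher without overlap. The median log2 fold change was -0.65 over the member probes and 0.05 over all probes tested, and without background correction that of the members was -0.40. In bulk RNA, fewer cells with a transcript and less of it per cell cannot be told apart.

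**Figure D1:**
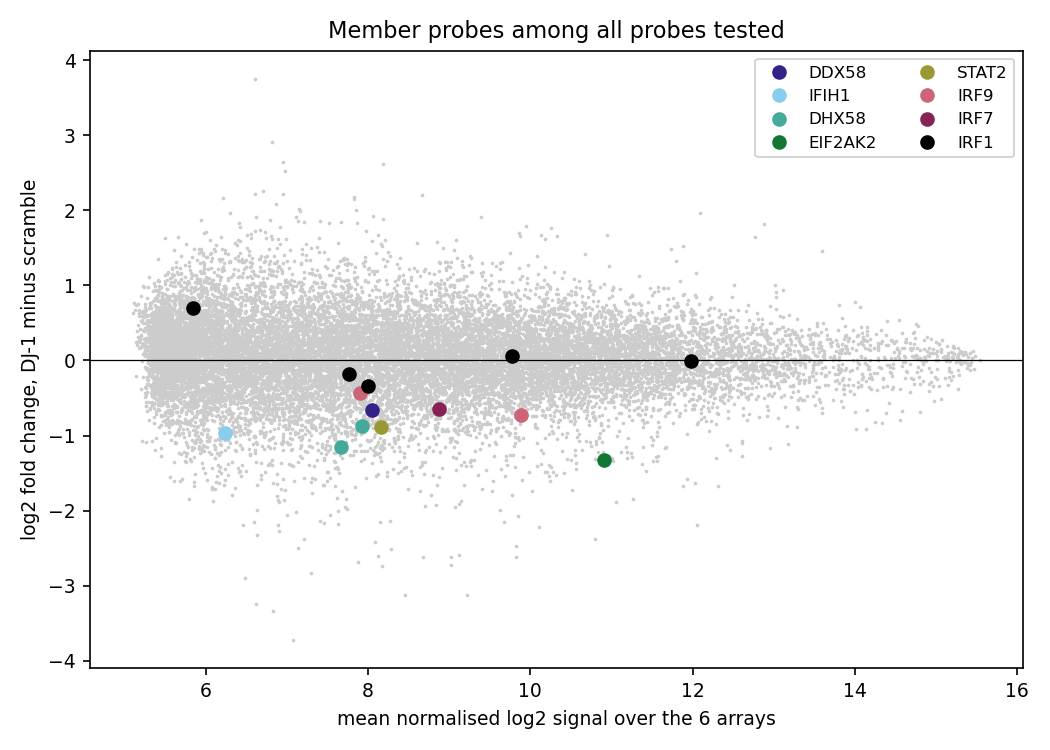
Each grey point is a probe tested, with its mean normalised log2 signal over the 6 arrays on the horizontal axis and its log2 fold change (DJ-1 siRNA minus scramble siRNA) on the vertical axis, and the larger points are the 14 member probes tested, black for IRF1 and in other colours for the rest. The EIF2AK2 probe lies lowest of the members at -1.33, whereas the brightest IRF1 probe lies at -0.01.

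A probe counts as detected on an array when its deposited detection p-value is under 0.05, and a probe was tested when it was detected on at least 3 of the 6 arrays. Of the 15 member probes, 12 were detected on all 6 arrays, 2 on 5 arrays and 1, that of TLR3, on 0. Intensities are the deposited ones, in arbitrary scanner units, and include background. Log2 signals are the same values after background correction and quantile normalization, and fold changes are differences of mean log2 signal. The spread among beads of a probe, as the median of its standard error, came to 11.3, 8.30 and 8.66 for the scramble arrays against 7.17, 6.36 and 5.88, and the detected probes numbered 16985, 17399 and 18179 against 18704, 18857 and 18408. Bead noise was thus higher and detection lower on every scramble array, and the part of this in the differences below was not tested.

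The siRNA target was read first. Its probe, PARK7, had intensities of 12020, 10900 and 12251 with scramble siRNA and 5935, 6586 and 4234 with *Dj1* siRNA. Every knockdown sample was below every scramble sample. PARK7 fell 2.24-fold (95% interval 1.79 to 2.80; adjusted p = 0.00344 from limma).

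To show what the promoters of the members share, windows of 300 bases, from 250 before to 50 after the annotated start, were read from RefSeq (GRCm38.p6) for the 8 of 9 members matched in that table. The letters GAAANNGAA, a core of the interferon-stimulated response element, were searched on both strands, as were the letters TTCNNNGAA of the gamma-activated site, which read the same on either strand. The first motif was in the windows of 4 of the 8 genes, Ddx58, Eif2ak2, Ifih1 and Stat2, against 9.76% of all genes in the table, and in 4 of 10 member windows against 8.56% of all 32851 windows. The second was in the windows of 2 of the 8, Irf1 and Eif2ak2, against 9.55% of all genes, and in 2 of 10 member windows against 8.30% of all windows. The stretches below show these matches in the gene's own direction, with matching letters in capitals, to let the letters be read beside the values. Of the genes with the first motif, Ddx58, Eif2ak2 and Stat2 fell, and Ifih1 had groups without overlap and missed the threshold. Of the genes without it, Irf7 and Irf9 each had a probe that fell, Irf1 had none, and Tlr3 was not detected. The member not matched in that table, Dhx58, was not searched, and each of its probes fell. The capitals in Ddx58, Stat2 and the upstream stretch of Ifih1 are the first motif as read from the opposite strand, and the gamma-activated letters of Eif2ak2, which lie further upstream, are not shown. The stretches lie on the minus strand at chr4:40239790-40239846 (Ddx58), chr17:78882523-78882578 (Eif2ak2), chr2:62646335-62646391 and chr2:62646206-62646247 (Ifih1), and on the plus strand at chr10:128270253-128270309 (Stat2) and chr11:53769900-53769956 (Irf1). In Eif2ak2 the capitals hold 2 overlapping matches that begin 19 and 25 bases into the transcript. In Irf1 they hold the gamma-activated letters, which begin 90 bases before the start. A match describes letters and is not evidence that a factor bound there.
Ddx58: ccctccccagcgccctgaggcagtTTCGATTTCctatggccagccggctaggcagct
Eif2ak2: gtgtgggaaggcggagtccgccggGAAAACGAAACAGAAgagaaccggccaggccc
Ifih1, upstream: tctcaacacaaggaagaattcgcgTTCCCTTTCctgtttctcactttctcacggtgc
Ifih1, downstream: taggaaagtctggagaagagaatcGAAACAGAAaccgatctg
Stat2: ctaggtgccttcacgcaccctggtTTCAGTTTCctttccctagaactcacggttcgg
Irf1: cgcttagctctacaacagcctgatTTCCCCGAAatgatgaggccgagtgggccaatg

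Among the sensors, DDX58 (ILMN_2717127) codes for RIG-I, which detects RNA with a triphosphate at its end. Its intensities were 507, 479 and 448 with scramble siRNA and 330, 381 and 304 with *Dj1* siRNA. The groups did not overlap, and the lowest scramble array lay 0.51 above the highest knockdown array on the normalised log2 scale, against a pooled SD of 0.08. The mean log2 signal was 8.38 ± 0.07 (SD, n = 3) with scramble siRNA and 7.72 ± 0.09 with *Dj1* siRNA. DDX58 fell 1.58-fold (95% interval 1.34 to 1.86; log2 fold change -0.66, adjusted p = 0.00604 from limma), and this call was kept under each of the 14 alternatives tried, with a log2 fold change of -0.44 without background correction and with quantile normalization.

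DHX58 codes for LGP2, a helicase without signalling domains that modulates RIG-I and MDA5. Its probe ILMN_1222039 read 433, 538 and 389 in intensity with scramble siRNA and 262, 330 and 221 with *Dj1* siRNA. Its other probe, ILMN_2915689, read 451, 529 and 445 against 314, 384 and 245. The groups did not overlap on either probe, and replicate 2 was the brightest of its group in either group. The falls were 2.22-fold (95% interval 1.55 to 3.18; adjusted p = 0.0111 from limma) and 1.83-fold (1.33 to 2.53; adjusted p = 0.0187 from limma). Neither passed without moderation of the variances (adjusted p = 0.0526 and 0.0694), and ILMN_2915689 also missed the threshold without scramble replicate 2 (adjusted p = 0.0547) and without DJ-1 replicate 1 (0.0600). Without background correction and with quantile normalization the log2 fold changes of the DHX58 probes moved from -1.15 to -0.69 and from -0.87 to -0.56.

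IFIH1 codes for MDA5, which binds long double-stranded RNA, and its probe (ILMN_2648913) was dim. Its intensities were 222, 247 and 266 with scramble siRNA and 166, 219 and 176 with *Dj1* siRNA. On DJ-1 replicate 1 it was not detected, with a detection p-value of 0.0930. The groups did not overlap, but the gap between them was 0.12 on the log2 scale against a pooled SD of 0.47. The log2 fold change was -0.97 (95% interval -1.71 to -0.23) and missed the threshold (adjusted p = 0.0546 from limma). It passed in 7 of the 13 alternatives that tested the probe, and without background correction the log2 fold change was -0.36 with quantile normalization.

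TLR3, the endosomal sensor, read 163, 164 and 139 with scramble siRNA and 167, 155 and 149 with *Dj1* siRNA. Its detection p-value was between 0.0791 and 0.503 and never under the threshold, so no fold change is given. The median intensity of all probes was between 152 and 167 on the 6 arrays.

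**Figure D2:**
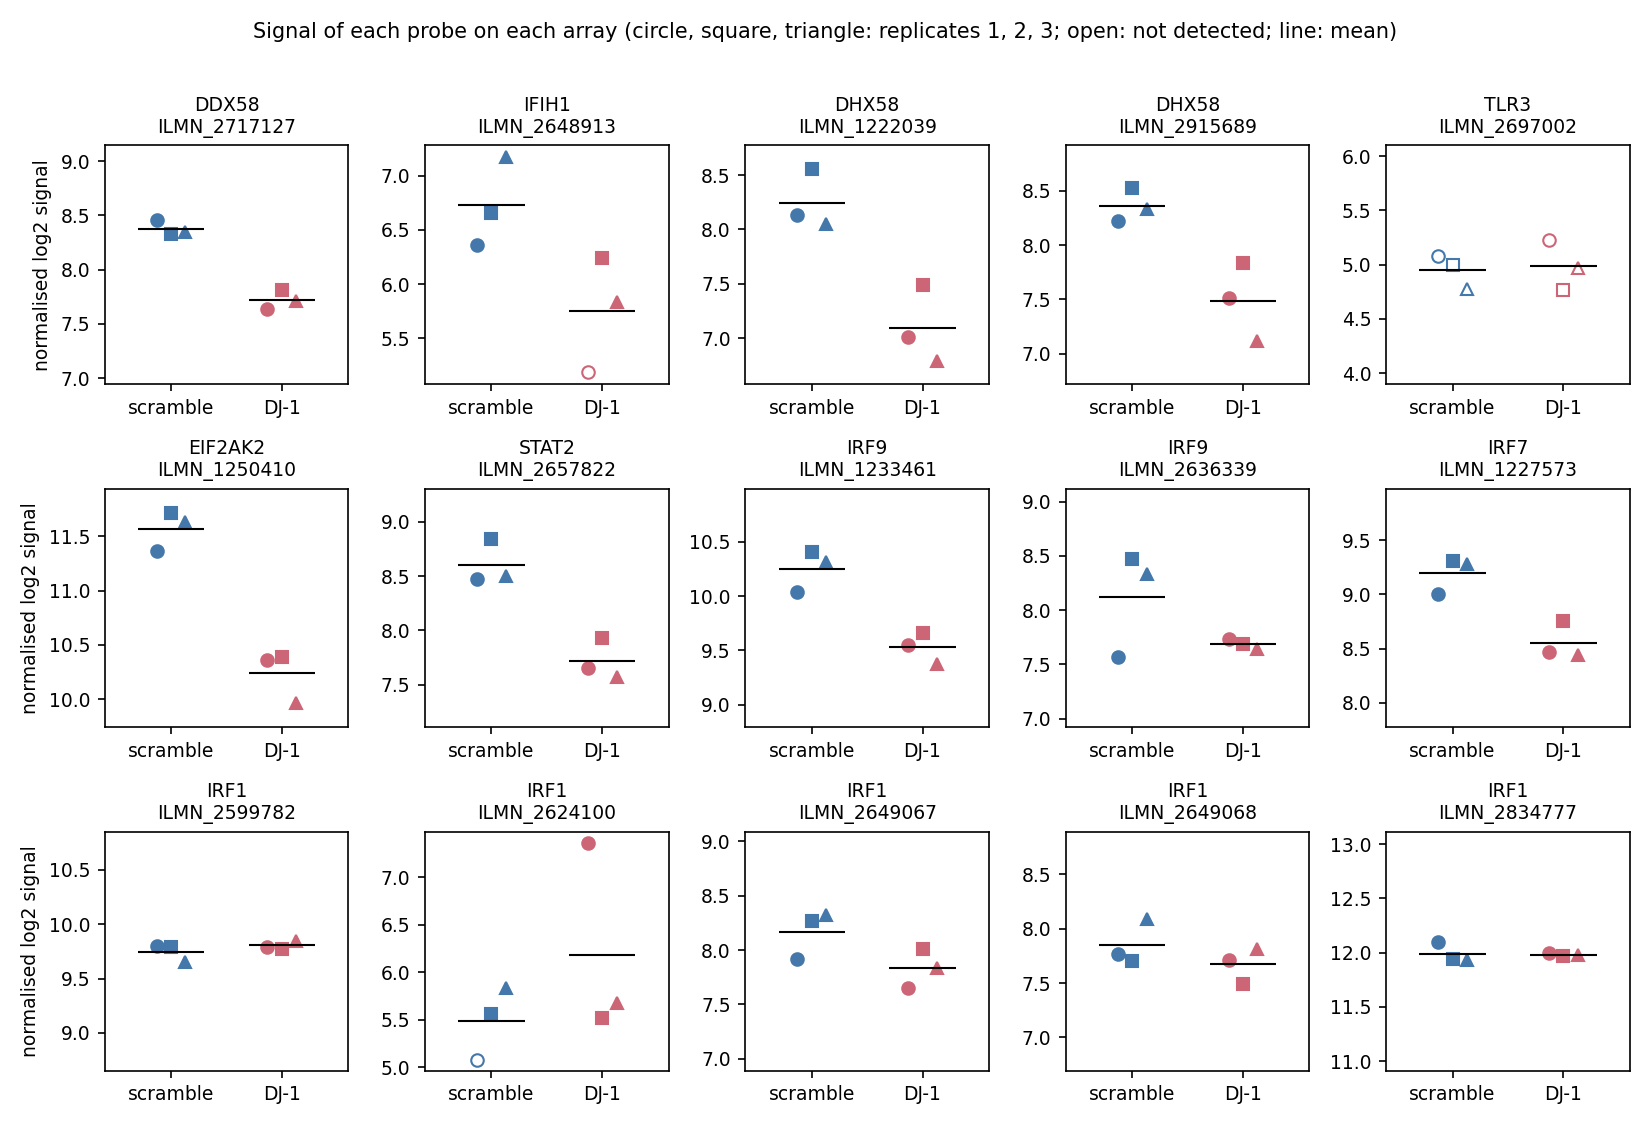
Normalised log2 signal (vertical axes, each spanning its own range) of the 15 member probes on the 3 scramble siRNA arrays (blue) and the 3 DJ-1 siRNA arrays (red), with the mean of each group as a line and open symbols for arrays without detection. The EIF2AK2 groups lie 0.97 apart at their nearest arrays, whereas the groups of the 5 IRF1 probes overlap.

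EIF2AK2 codes for PKR, the kinase that halts translation when it binds double-stranded RNA, and it had the largest fall among the members. Its probe (ILMN_1250410) read 2783, 3532 and 3161 with scramble siRNA and 1461, 1634 and 986 with *Dj1* siRNA. The brightest knockdown array was thus well below the dimmest scramble array, with a gap of 0.97 on the log2 scale and a pooled SD of 0.21. The mean log2 signals were 11.57 ± 0.19 (SD, n = 3) and 10.24 ± 0.24. EIF2AK2 fell 2.52-fold (95% interval 1.93 to 3.27; log2 fold change -1.33, standard error 0.16, adjusted p = 0.00356 from limma). Of all probes tested, 1.19% had a lower log2 fold change. The call was kept under each of the 14 alternatives, in which the log2 fold change lay between -1.44 and -1.18.

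STAT2 is the subunit that carries the transcription-activating domain of the interferon-induced factor. Its probe (ILMN_2657822) read 510, 624 and 485 with scramble siRNA and 333, 400 and 288 with *Dj1* siRNA. The groups did not overlap, with a gap of 0.54 on the log2 scale. STAT2 fell 1.85-fold (95% interval 1.44 to 2.38; adjusted p = 0.00839 from limma), and the call was kept under each of the 14 alternatives.

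IRF9 is the subunit that gives this factor its DNA binding specificity. The brighter of its probes (ILMN_1233461) read 1220, 1512 and 1354 with scramble siRNA and 875, 1031 and 699 with *Dj1* siRNA, with no overlap, and fell 1.65-fold (95% interval 1.31 to 2.07; adjusted p = 0.0114 from limma). The dimmer probe (ILMN_2636339) read 334, 513 and 444 against 343, 359 and 296. Here scramble replicate 1 lay among the knockdown arrays in intensity and below all of them on the normalised log2 scale, so the groups overlapped. The log2 fold change of this probe was -0.44 (95% interval -0.99 to 0.12; adjusted p = 0.198 from limma), and without scramble replicate 1 it was -0.71 (adjusted p = 0.00906), whereas without scramble replicate 2 it was -0.26 (adjusted p = 0.434).

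IRF7 is the factor that amplifies interferon gene transcription. Its probe (ILMN_1227573) read 669, 791 and 739 with scramble siRNA and 481, 608 and 419 with *Dj1* siRNA. The knockdown arrays lay below the scramble arrays without overlap, by a gap of 0.25 on the log2 scale. IRF7 fell 1.56-fold (95% interval 1.25 to 1.96; adjusted p = 0.0157 from limma), but missed the threshold without DJ-1 replicate 1 (adjusted p = 0.0620) and without DJ-1 replicate 3 (0.0596).

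IRF1 is induced by interferon-gamma as well as by type I interferon. The array holds 5 probes for it, and 0 of them passed the test in either direction. The brightest (ILMN_2834777) read 4505, 4113 and 3897 with scramble siRNA and 4275, 4610 and 3748 with *Dj1* siRNA. These ranges overlap almost fully, and the log2 fold change was -0.01 with a 95% interval of -0.24 to 0.22 (adjusted p = 0.953 from limma), so that a change of more than 1.18-fold in either direction is outside the interval. Its sign was positive with the 75th percentile shift (0.12 with and 0.06 without background correction) and without scramble replicate 1 (0.04), none past the threshold. A second bright probe (ILMN_2599782) read 1062, 1056 and 917 against 1015, 1101 and 916, with a log2 fold change of 0.06 (95% interval -0.17 to 0.28).

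The other IRF1 probes were dimmer. ILMN_2649067 had a log2 fold change of -0.34 (95% interval -0.70 to 0.03, adjusted p = 0.141 from limma), which without scramble replicate 1 was -0.46 (adjusted p = 0.0495). ILMN_2649068 had -0.18 (95% interval -0.53 to 0.17), and between -0.25 and -0.06 with an array left out. Without background correction and with quantile normalization ILMN_2649067 was at -0.22 and ILMN_2649068 at -0.11. The dimmest, ILMN_2624100, read 163, 189 and 183 with scramble siRNA and 297, 184 and 170 with *Dj1* siRNA. A single array, DJ-1 replicate 1, stood above the rest there, with a standard error of 32.0 over its beads, and without it the log2 fold change moved from 0.69 to 0.10.

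**Figure D3:**
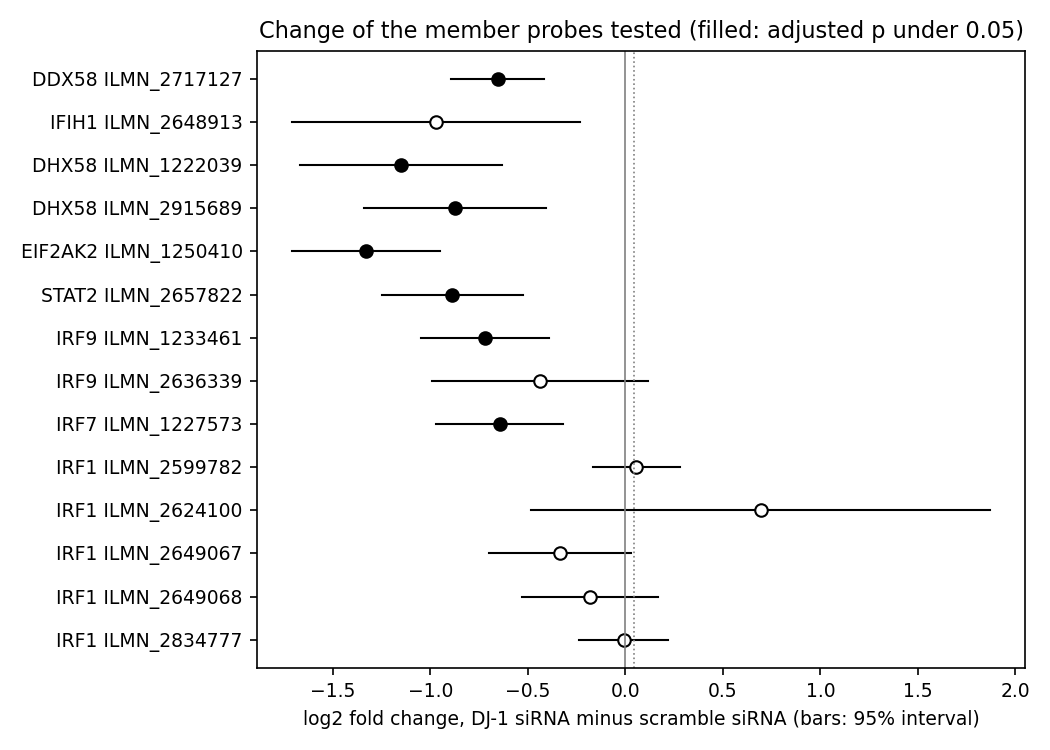
Log2 fold change (horizontal axis, DJ-1 siRNA minus scramble siRNA) of the 14 member probes tested, with 95% intervals as bars, filled symbols for probes with an adjusted p under 0.05 and a dotted line at the median of all probes tested (0.05). The 7 filled symbols lie between -1.33 and -0.64, and the 5 IRF1 probes are all open.

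The plot of changes under other settings shows which calls rest on a setting or on an array, and DDX58, EIF2AK2, STAT2 and the brighter IRF9 probe kept theirs throughout.

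**Figure D4:**
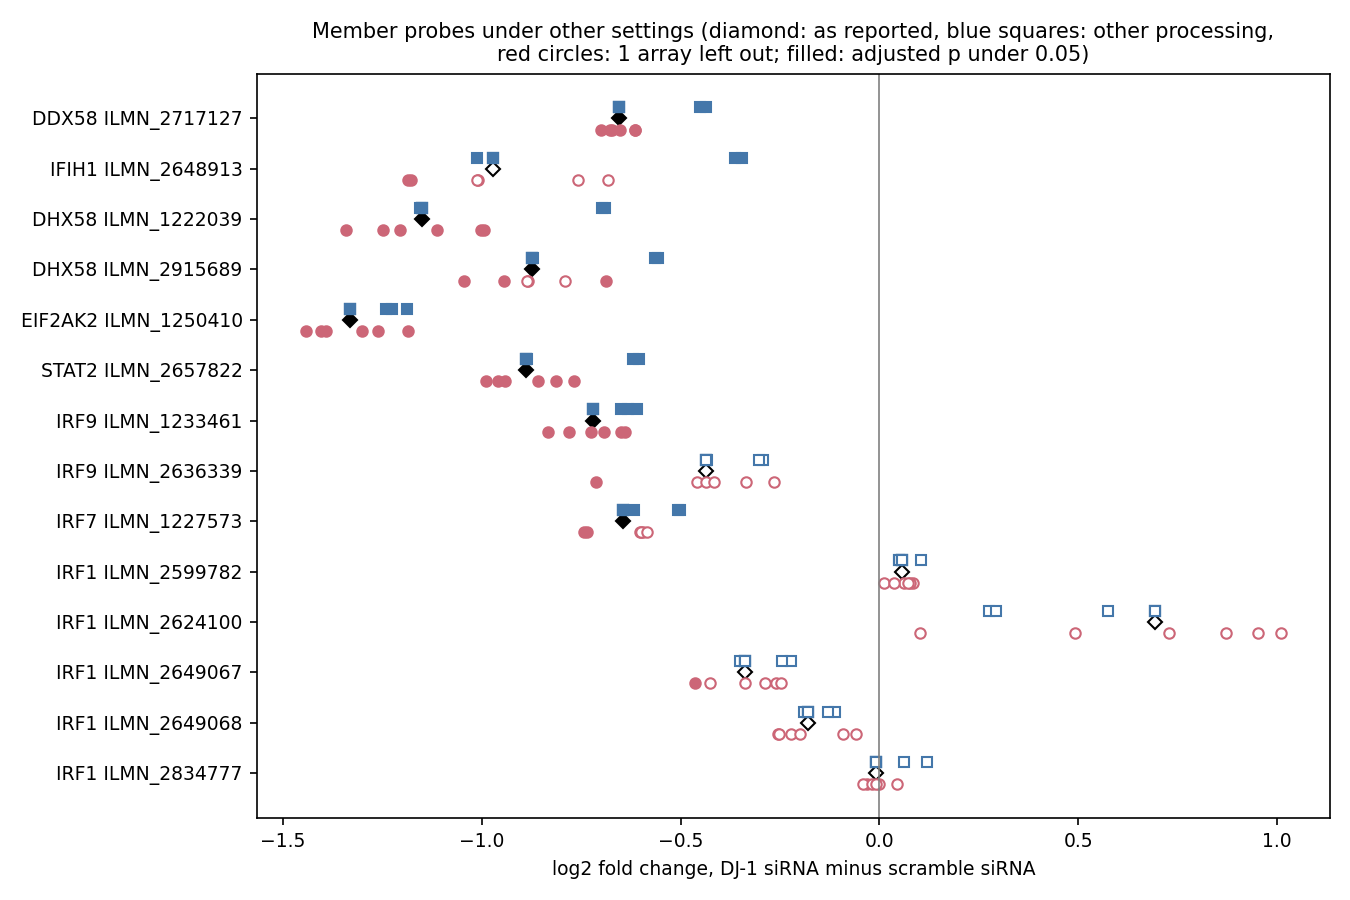
Log2 fold change (horizontal axis, DJ-1 siRNA minus scramble siRNA) of the member probes as reported (diamonds), with other processing (blue squares) and with an array left out (red circles), filled where the adjusted p is under 0.05. EIF2AK2 stays between -1.44 and -1.18, and the brightest IRF1 probe between -0.04 and 0.12.

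The members were also set against IRF1 within each array, as a description. The log2 signal of the brightest IRF1 probe was subtracted from that of the brightest tested probe of each of the 7 other members. By construction the mean shift of this difference is the gap between their log2 fold changes, and it was lower in the knockdown myotubes by 0.63 (IRF7) to 1.32 (EIF2AK2). For 6 of the 7 genes all knockdown values were under all scramble values, and for IFIH1 they were not. A two-sided exact permutation test of 3 arrays against 3 cannot go below p = 0.1, the value reached for those 6, so it cannot show a difference at 0.05. The dimmer IRF1 probes, at -0.34 and -0.18, were not used here.

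The members also varied together within groups. Of the 9 tested probes of genes other than IRF1, 8 had their highest knockdown signal on DJ-1 replicate 2, and 7 their lowest on DJ-1 replicate 3. Among all probes tested these shares were 35.8% and 35.8%. In the scramble group 7 of the 9 were highest on replicate 2 and 7 lowest on replicate 1, against 32.7% and 38.7% of all probes. The mean standardised log2 signal of the 8 tested members, taking the brightest probe of each, was 0.70, 0.81 and 0.71 with scramble siRNA and -0.85, -0.39 and -0.98 with *Dj1* siRNA. Single members followed this mean with a Pearson correlation of at least 0.96 over the 6 arrays, except IFIH1 (0.83) and IRF1 (0.03). Each member is itself part of the mean it was set against. These correlations also mostly hold the difference between the groups and are given as a description.

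By the same measure, the probes outside the members that were most like this mean were those of TCEAL7, LOC384338, ABCF2, HEATR3 and LOC100038882, with correlations between 0.998 and 1.00 over the 6 arrays. TCEAL7, listed without a gene number, read 1812, 2112 and 1772 with scramble siRNA and 301, 501 and 248 with *Dj1* siRNA. LOC100038882 carries the gene number of Isg15, the ubiquitin-like protein that interferon induces, and read 6268, 7841 and 6340 against 2134, 3218 and 1677.

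The rest of the pathway was read from lists of genes, also chosen with earlier results of these data known. They were counted by probe and set beside the same shares of all probes (13.6% lower, 16.5% higher). For dim probes the log2 fold changes depend on the background correction, and where a probe moved by over 1.5 times without it, the value nearest 0 is given as well, save for an ADAR probe at -0.03. The further probes of FADD, CASP8, RIOK3, IRGM1 and IFITM1, mentioned beside those named, were not recomputed in this way. Interferons themselves were mostly below detection. Of 34 probes for interferon genes 27 were not detected on any array, among them that of IFNB1, the interferon that RNA sensors induce first. Of the 5 that were tested, 0 were lower and 1 was higher, IFNAB at 0.40 (adjusted p = 0.0438 from limma), a call that was lost in 11 of 14 alternatives (0.22 without background correction). At an unadjusted p under 0.05 the counts were also 0 and 1 (3439 and 4220 among all 17890 probes), and without moderation of the variances 0 and 0 (1680 and 1994 among all).

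For interferon receptors and Janus kinases, 0 of 14 probes tested were lower and 3 were higher, with a median log2 fold change of 0.16. At an unadjusted p under 0.05, 1 was lower and 4 were higher, and without moderation of the variances 0 and 2, to be read beside the same counts of all probes. JAK1, a kinase of the type I receptor, read 10.07, 9.54 and 9.66 in normalised log2 signal with scramble siRNA and 10.52, 10.43 and 10.71 with *Dj1* siRNA, and rose by 0.79 (adjusted p = 0.0145 from limma), a call lost in 3 of 14 alternatives. Both tested probes of JAK2 rose, by 0.57 and by 0.45, the smaller rise lost in 6 of 14 and at 0.26 without background correction. TYK2, the partner of JAK1 at the type I receptor, was at 0.32 on its brightest probe (adjusted p = 0.0664), the receptor chain IFNAR2 at -0.19 and -0.52 on its tested probes, neither of which passed (-0.07 and -0.21 without background correction), and IFNAR1 was not detected on any array.

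Of probes for signalling proteins below the sensors 12 of 32 were lower and 1 was higher, with a median of -0.33. The probe that rose was that of MAVS (listed as D430028G21RIK), the adaptor of RIG-I and MDA5. Its log2 signals were 7.98, 8.05 and 8.41 with scramble siRNA and 8.74, 8.64 and 8.86 with *Dj1* siRNA. It rose by 0.60 (adjusted p = 0.0219 from limma), opposite to DDX58, and missed the threshold in 4 of 14 alternatives. FADD (-1.24), STING (listed as 2610307O08RIK, -1.06) and CASP8 (-0.92, lost in 3 of 14 alternatives) each had a probe that fell. Without background correction these probes were at -0.51, -0.38 and -0.54, in another order. The other tested probes of FADD fell by 0.60 and 0.67, and that of CASP8, at -0.65, did not pass. TBK1, the kinase that activates IRF3, fell by 0.30 with an adjusted p of 0.0495 that was lost in 10 of 14 alternatives, and was at -0.18 with the 75th percentile shift. The 3 probes of IRF3 lay between -0.42 and -0.37 without passing, of which ILMN_1229320 was at -0.19 and ILMN_1224505 at -0.28 without background correction, and the probes of TICAM1, the adaptor of TLR3, were detected on too few arrays to be tested.

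Of probes for proteins that modify the sensors or their RNA, 5 of 44 were lower and 9 higher, with a median of -0.01, which is near the shares of all probes. ADAR, which edits double-stranded RNA, fell by 1.20 and 1.21 on 2 of its 4 tested probes (adjusted p = 0.00869 and 0.00429 from limma), whereas the others were at -0.34 and -0.03 and did not pass, so its probes disagreed. Without background correction the probe at -1.20 was at -0.69 and that at -0.34 was at -0.16. The helicase DHX9 fell by 1.19. PRKRA, known as PACT, a protein activator of PKR, rose by 0.63 (adjusted p = 0.00873 from limma), the deubiquitinase CYLD by 0.60 and the kinase RIOK3 by 0.95 on a probe that was not detected on 2 of 3 scramble arrays. That call was lost in 6 of 13 alternatives and the value was 0.34 without background correction, and the other tested RIOK3 probes, detected on all 6 arrays, were at 0.42 and 0.14 and did not pass. EIF2AK2 and its activator thus changed in opposite directions.

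Among other sensors of nucleic acid 5 of 8 probes tested were lower and 1 was higher, with a median of -0.74. ZBP1, which binds left-handed double-stranded nucleic acid, fell by 0.94 and 0.96 on its 2 probes, DDX60 by 1.21 and IFI204 by 1.05. The dimmer ZBP1 probe, at -0.96, was not detected on 2 of 3 knockdown arrays, and those of DDX60 and IFI204 on 1 of 3, so these values are against background there. IFI204 and the dimmer ZBP1 probe lost the call in 6 and 5 of 13 alternatives. NOD2 rose by 0.49, a call lost in 11 of 13. Without background correction DDX60 was at -0.39, IFI204 at -0.34, the dimmer ZBP1 probe at -0.29 and NOD2 at 0.16.

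Among inhibitors of interferon signalling 6 of 16 probes were lower and 4 higher, with a median of -0.06. USP18, which blocks the type I receptor and is itself induced by interferon, fell by 1.33 and 1.55 on its 2 probes, and the phosphatase PTPN2 fell as well, with a log2 fold change of -1.53. CISH rose by 1.20, PIAS4 by 0.72 and PIAS1 by 0.41, the last 2 lost in 6 and 5 of 14 alternatives. PTPN2 was not detected on 1 of 3 knockdown arrays and CISH on 1 of 3 scramble arrays, and without background correction they were at -0.57 and 0.44. SOCS1 was below detection in the scramble group and detected throughout the knockdown group. With the lowest signal of a detected probe on each scramble array as its limit there, the knockdown mean was 1.06-fold above the mean limit. DJ-1 replicate 1, at a log2 signal of 5.40, lay below each of these limits (5.60, 5.53 and 5.42). The log2 signals of SOCS1 overlapped between groups, and it did not pass (adjusted p = 0.0930 from limma). Its log2 fold change was 0.61, and 0.23 without background correction.

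Interferon-induced effectors, the genes that the factor acts on, had 29 of 47 probes lower, 1 higher and a median of -0.64. The chemokine CXCL10 read 8.91, 9.45 and 9.29 in log2 signal with scramble siRNA and 6.63, 6.67 and 6.31 with *Dj1* siRNA, a fall of 2.68 (adjusted p = 0.00224 from limma). Without background correction CXCL10 was at -1.68. RSAD2, or viperin, fell by 2.59. Probes of the GTPase IRGM1 disagreed. It fell by 1.70 on a probe that was not detected on 2 of 3 knockdown arrays (-0.65 without background correction) and on another, with a log2 fold change of -1.53, whereas a further probe, detected on all 6 arrays, was at 0.05 and did not pass (adjusted p = 0.718 from limma). IFITM1 rose by 0.84 on 1 of its 3 tested probes, a call lost in 4 of 14 alternatives, and its other tested probes were at -0.33 and -0.16 and did not pass. These lists were not set against one another by a test.

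**Figure D5:**
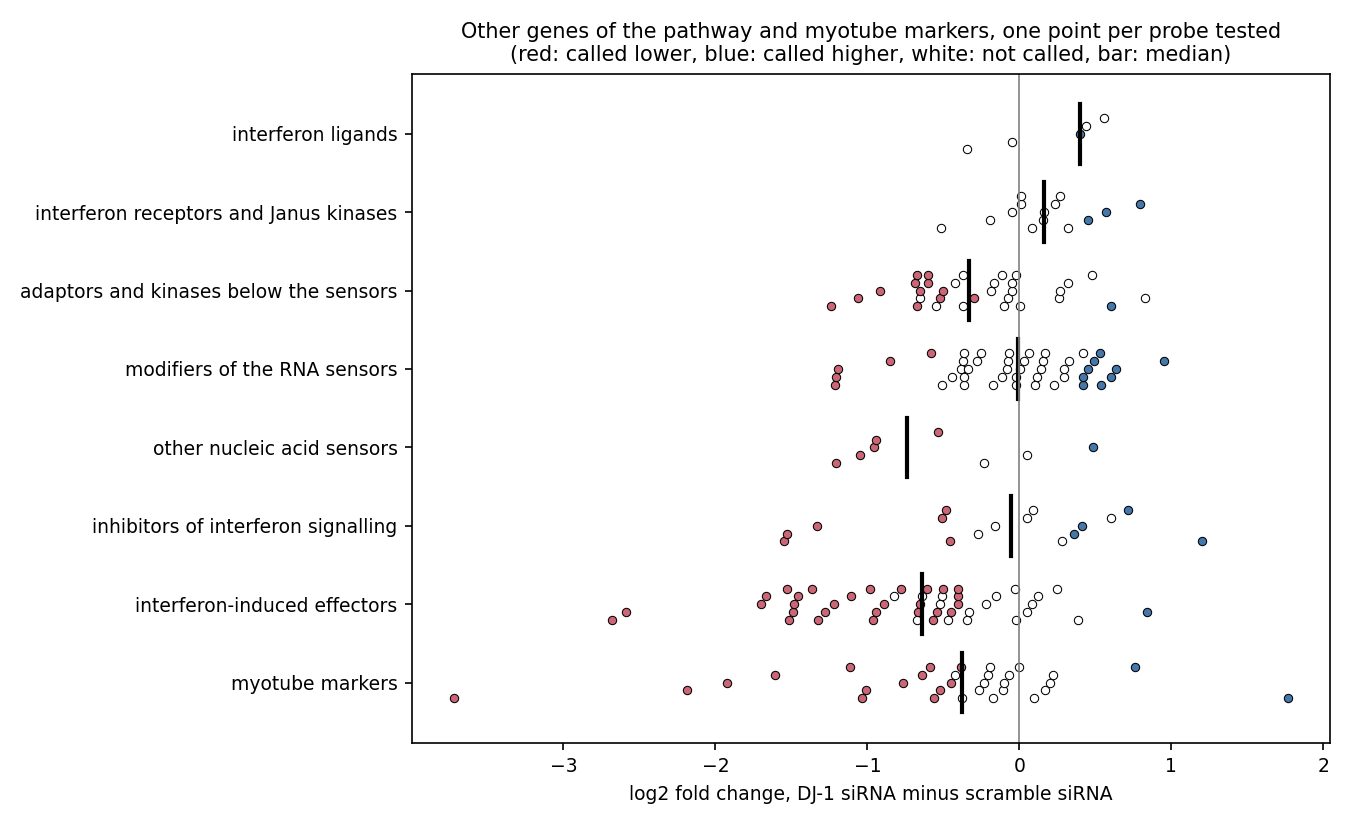
Log2 fold change (horizontal axis, DJ-1 siRNA minus scramble siRNA) of every tested probe of the pathway lists described here and of the myotube markers, with called probes in red (lower) or blue (higher) and list medians as bars. Effectors lie mostly to the left with a median of -0.64, and receptors and Janus kinases to the right with a median of 0.16.

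Markers of the cell state were read on the same arrays. Each of the 16 myotube marker genes was detected on at least some arrays, and their summed signal after normalization was 358530, 347400 and 351860 with scramble siRNA against 296970, 305890 and 275600 with *Dj1* siRNA. ACTA1 had the highest signal over the 6 arrays together, although a probe of MYLPF was above it on each scramble array. Of 31 marker probes tested, 14 were lower, 2 were higher and 15 were not called, with a median of -0.38. The largest falls in log2 signal were in myosin heavy chains, and they exceeded that of EIF2AK2 (-1.33). MYH4 was at -3.72, the lowest value of all probes tested, MYH1 at -2.19 and -1.93, and MYH2 at -1.61. On the knockdown arrays MYH4 was detected on 1 and MYH2 on 0, so these values are against background there. The 2 higher probes were of TTN (1.77 and 0.76), of which other probes fell. As among the members, more probes of this list fell than rose. Whether the list followed the members from array to array was not tested, nor was its part in the results. For undifferentiated or cycling myoblasts PAX7 was not detected. Of 9 probes tested, 2 were lower and 0 higher (2 lower and 3 higher at an unadjusted p under 0.05 from limma). The lower ones were the probe of MYOD1 (-0.90) and a probe of CCNB1 (-0.57). The median log2 fold change of the 9 was 0.20, with 6 positive and 3 negative values. The summed signal was 6153, 6569 and 5882 against 5322, 6006 and 5582, with the highest signal on a probe of CDC2A. Signals of different probes do not rank amounts of transcript.

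Markers of immune cells and vessels gave little signal in this cell line. Of 14 listed names of immune markers 7 were not detected on any array, among them PTPRC, CSF1R, ITGAM and TYROBP. For 2 (CD14 and SIGLECH) a probe was detected on all 6 arrays, whereas the other SIGLECH probes were detected on 0 and 1. Summed immune marker signal, which includes the background of undetected probes, was 974.9, 1031 and 998 with scramble siRNA and 996, 928 and 905 with *Dj1* siRNA. CD14 had the highest signal over the 6 arrays together, although a probe of SIGLECH was above it on 3 of the 6. Of the 4 immune probes tested 1 was lower, LYZ, on a probe that was not detected on 2 of 3 knockdown arrays, and 0 were higher. At an unadjusted p under 0.05 from limma 2 were lower and 0 higher. Of the 5 endothelial markers KDR was not detected, CDH5, PECAM1 and TEK were each detected on 1 array, and the probe of VWF, which was dim, had the highest signal. Their summed signal was 276, 320 and 288 against 326, 292 and 260. PTPRC, the marker shared by white blood cells, was thus at background in both groups.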

How the data were processed

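RNA from 3 scramble siRNA and 3 DJ-1 siRNA samples of C2C12 myotubes was measured on an Illumina Mouse WG-6 V2 BeadChip. The values deposited by the authors, from GenomeStudio, are a probe's mean bead intensity with its standard error, the bead number and a detection p-value, neither normalised nor background-subtracted. In R 4.3.3 with limma 3.58.1, background was corrected by normexp (offset 16, with the negative control level estimated from detection p-values), followed by quantile normalization and log2. Probes detected (p under 0.05) on at least 3 of 6 arrays entered lmFit and eBayes, with Benjamini-Hochberg adjustment over all of them (threshold 0.05). The pipeline was tested on simulated data. The number of arrays limits the precision.

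The alternatives were other background corrections, normalizations and filters, a trended prior, a replicate block, an unmoderated t-test (the study used a moderated one in GeneSpring) and leaving out each array. Lists were matched by name or by RefSeq gene number. The genes named are all members, Park7, fixed pathway genes and a choice by size. Per pathway list, that choice was up to 3 called probes in each direction with the largest log2 fold change. It was made among probes without overlap of groups and with detection on every array of at least a single group. Other names, chosen after their values were seen, fill out small counts or give changes of markers. The members and lists were chosen with earlier results of these data known. The array file names no genome build, so only promoter windows carry coordinates.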

Additional observations from a re-analysis of the deposited data

How the results depend on the processing

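Of the values of the 14 tested member probes under the alternatives, 176 of 194 kept their direction and side of the threshold, 9 gained the call, 6 lost it and 3 changed sign, all 3 those of the IRF1 probe ILMN_2834777 (0.120 and 0.0632 with the 75th percentile shift with and without background correction; with an array left out, from -0.0406 to 0.0449). Without background correction the median log2 fold change of the member probes was -0.40 with either normalization. With no filter 3519 probes were called in all. With an array left out the knockdown of Park7 kept its call, the count of member probes lower ranged from 5 to 10, that of member probes higher was 0, the median of member probes ranged from -0.73 to -0.61, and the count of all probes called ranged from 2444 (without DJ-1 replicate 1) to 5302. The cause was not tested. Among other named genes, the sign turned for the uncalled named probe TYK2 ILMN_2455701 (-0.0157 without background correction, -0.0383 with the 75th percentile shift) and the uncalled named probe ADAR ILMN_2704372 (from -0.0922 to 0.0949 with an array left out).

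Same-numbered samples did not deviate together by more than 0.1 in correlation (0.05, 0.05 and 0.02), so the numbers were not taken as pairs, although each sample correlated best with its own number. With the replicate block 4350 probes were called, 8 member probes were lower and 0 higher, IFIH1 passed (adjusted p = 0.0346), and the log2 fold changes (Park7 -1.16, member median -0.65) are the same by construction. Signal over background limits dim probes: with quantile normalization and no background correction, the log2 fold change of IFIH1 was -0.36 and that of IRF1 probe ILMN_2624100 was 0.28.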
